A study of Mus musculus with 2 samples.

Results

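The genes described here encode actin and the proteins that assemble, cut, bundle, contract or anchor its filaments, measured in wild-type mouse splenic B cells. The 50 members were listed by name and found through probe sets that name a member and no other gene. Of these genes 46 had such a probe set, out of 12393 genes measured in all. Actr2 and Arpc3 had none here, and Arpc1b and Twf1 were named only on probe sets that also name a predicted gene, which were not used. The 46 genes were covered by 102 probe sets, of which 3 are control probe sets for Actb and are given separately, which left 99.

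Actin monomers bind ATP and polymerise into polar filaments. The Arp2/3 complex starts branches on existing filaments, formins and Ena/VASP proteins extend the barbed end, capping proteins stop it, and cofilin cuts old filaments. In B cells this cortical network restrains and then releases the B cell receptor, carries the cell through lymphoid tissue and shapes the contact with antigen-presenting cells. Serum response factor (SRF), the transcription factor whose deletion the study addresses, binds a short DNA element called the CArG box in many genes of this network. Its coactivators of the MRTF family are held inactive by unpolymerised actin.

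The study set out to compare wild-type IgM+IgD+ B cells with SRF-deficient ones. The 2 arrays used here are both of the wild-type group, labelled as carrying no genetic modification, and hold total RNA of primary cells sorted by flow cytometry from spleen. SRF-deficient samples are not analysed here, and strain, age, sex and pooling are not given in the sources used here. Replicates 1 and 2 are names in accession order, and nothing in the labels says whether the samples came from separate mice, so the spread between them may be technical. With 1 group of 2 samples no difference can be tested, and each difference below describes these 2 arrays.

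Promoters that hold a perfect CArG box are shown because that box is the element SRF binds. RefSeq windows of 300 bases, from 250 before to 50 after a transcription start (GRCm38.p6), were found for 46 of the 50 members, 58 windows in all, and no window was searched for Actb, Coro1b, Diaph1 and Twf2. A box was present in 5 of these windows, or 8.62%, each of a different gene, against 1.63% of all 32851 windows. The stretches printed are 60 bases long and lie wholly upstream of the start, with the box in capitals. They are Actg1 (chr11:120348551-120348610, minus strand), Cnn2 (chr10:79988519-79988578, plus strand), Myl6 (chr10:128493025-128493084, minus strand), Vcl (chr14:20929148-20929207, plus strand) and Arpc4 (chr6:113377863-113377922, plus strand).
Actg1: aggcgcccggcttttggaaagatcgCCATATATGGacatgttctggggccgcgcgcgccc
Cnn2: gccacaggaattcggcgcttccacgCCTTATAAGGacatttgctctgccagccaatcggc
Myl6: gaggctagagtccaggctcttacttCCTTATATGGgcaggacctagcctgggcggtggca
Vcl: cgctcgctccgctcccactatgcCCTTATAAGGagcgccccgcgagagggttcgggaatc
Arpc4: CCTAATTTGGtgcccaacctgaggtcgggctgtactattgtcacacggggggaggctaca

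The box began 90 bases before the start in Actg1, 56 in Cnn2, 50 in Myl6, 227 in Vcl and 250 in Arpc4. Cnn2 and Vcl carried the same box. Of other promoter motifs, searched on both strands, GGGCGG was present in 75.9% of the member windows against 35.7% of all windows, and TATAAA in 3.45% against 13.6%. A match describes the letters in the window, and no binding was measured here.

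Signals are MAS5 intensities on a linear scale, on arrays that the deposited values show scaled to a common trimmed mean. An array's floor was taken from 60 genes typical of liver, brain, testis and other organs, as the 90th percentile of their 87 probe sets. It was 155 on replicate 1 and 80.9 on replicate 2. From the differences between the arrays, a single log2 signal had a pooled SD of 0.66 over the 5498 probe sets above both floors, or 1.58-fold. Of 11 measured B cell markers 10 exceeded the floor on both arrays, among them Ighm, the IgM heavy chain gene, with 9959 and 15633, and Ms4a1, which encodes CD20, with 3394 and 6347 on replicates 1 and 2. Cd79a, which encodes a signalling chain of the receptor, went the other way by its only probe set, with 2931 and 192. The marker below the floor was Pax5, with 21.5 and 15.6, and both of these were named after their values were seen. Markers of T cells, monocytes, neutrophils, platelets, erythroid cells and stroma were above it in 8 of 53 cases, or 15.1%, against 33.3% of all genes. The counts were 0 of 10 for T cells, 2 of 11 for monocytes and macrophages, 3 of 8 for neutrophils, 2 of 8 for platelets, 0 of 4 for erythroid cells and 1 of 12 for stroma.

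The actin network was above the floor almost as a whole. Of the 46 measured members 43 (93.5%) had a probe set above the floor on both arrays, against 33.3% of all genes. The other 3 were Coro1b, Tpm1 and Vcl. Each gene is given by its brightest probe set, the one with the highest mean log2 signal. Since probes differ in affinity, signals of different genes are not compared as amounts of RNA. In RNA taken from many sorted cells together, fewer cells of a type and less RNA per cell cannot be told apart.

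**Figure D1:**
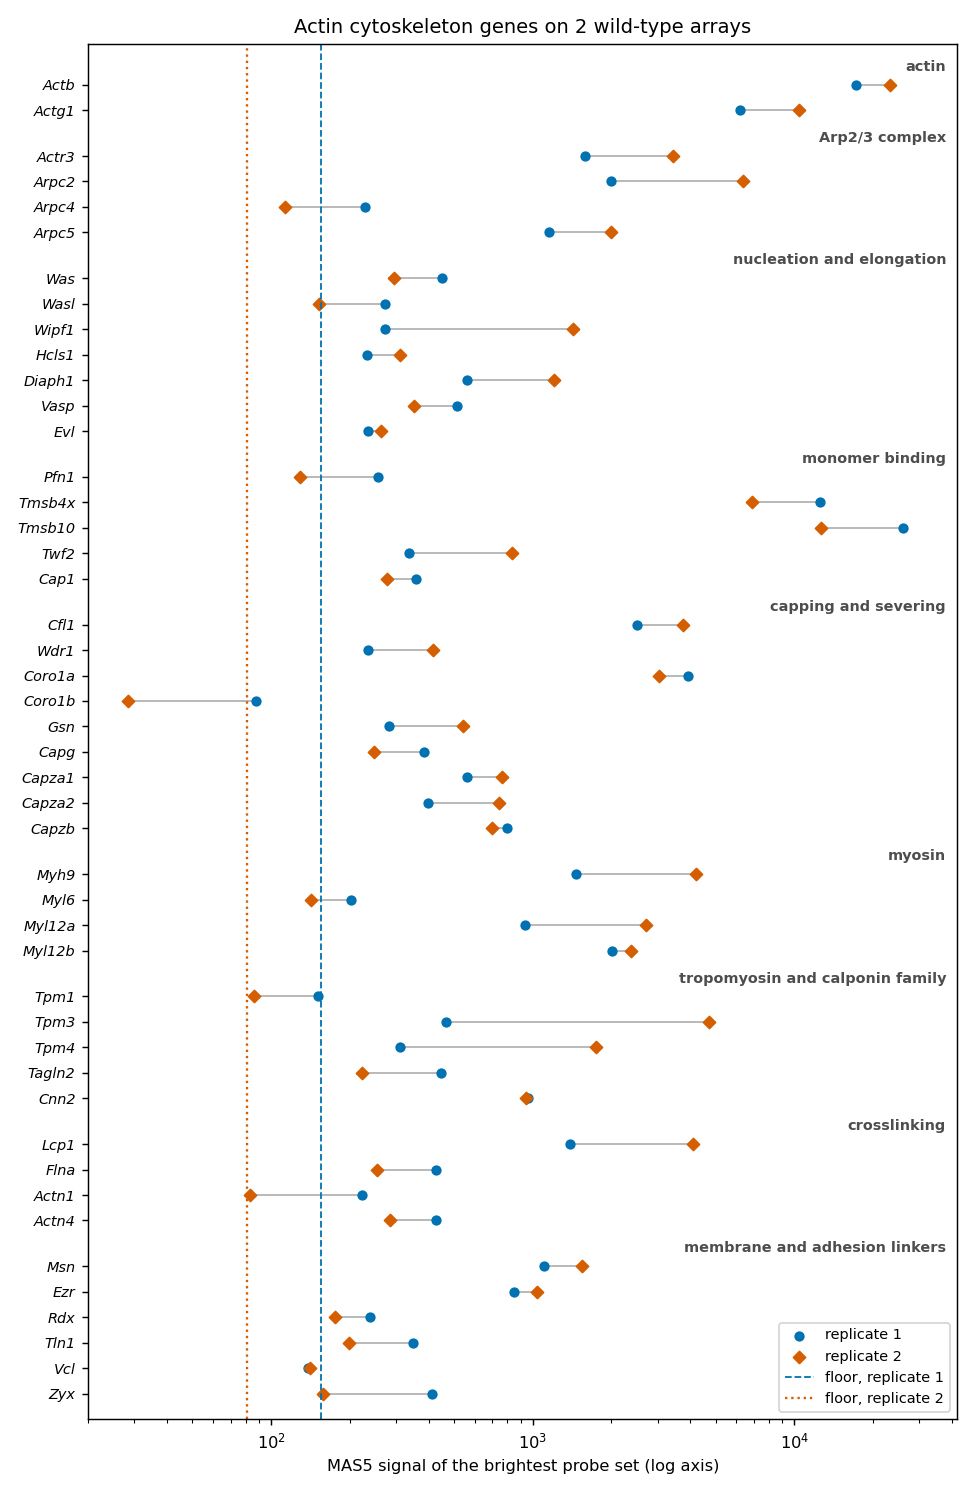
MAS5 signal (log axis) of the brightest probe set of the 46 measured members on replicate 1 (circles) and replicate 2 (diamonds), grouped by function, with the floor of each array as a vertical line. Coro1b lay below both floors, and Tpm1 and Vcl lay just below that of replicate 1, while the actin and thymosin genes lay far above both.

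Both cytoplasmic actin genes were well above the floor and moderately higher on replicate 2. Actb, which encodes beta-actin, gave 17216 on replicate 1 and 23292 on replicate 2, a 1.35-fold difference. Actg1, which encodes gamma-actin and carries the CArG box shown above, gave 6177 and 10414, a 1.69-fold difference by its only probe set. Both stayed higher on replicate 2 under both scalings tried below. A dimmer Actb probe set, which likewise passed both floors, went the other way, with 766 and 199.

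Actb is also one of the mRNAs that the array samples along its length. The control probe sets gave 5980 and 2824 at the 5′ end, 5048 and 7498 in the middle and 21356 and 23031 at the 3′ end, on replicates 1 and 2. The actin message was thus close at its 3′ end, 0.11 apart on the log2 scale, and 2.12-fold lower on replicate 2 at its 5′ end. Control probe sets for Gapdh, a glycolytic enzyme gene, were likewise close at the 3′ end, with 862 and 824. In the middle Gapdh was lower on replicate 2, with 797 and 97.5, where Actb was higher. At the 5′ end Gapdh was lower on replicate 2, as Actb was, with 656 and 13.5. The last of these lay below the floor of replicate 2. The deposited files do not say where in its mRNA each other probe set lies, and the part of this 3′ to 5′ difference in the results below was not tested.

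**Figure D2:**
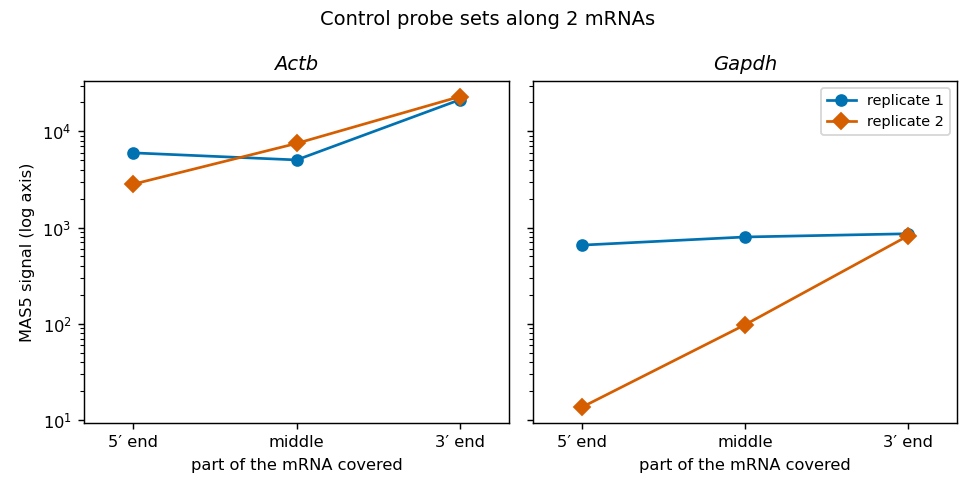
MAS5 signal (log axis) of the control probe sets at the 5′ end, middle and 3′ end of the Actb and Gapdh mRNAs on each array. The arrays meet at the 3′ end of both mRNAs and part at the 5′ end, where replicate 2 gave 2824 against 5980 for Actb and 13.5 against 656 for Gapdh.

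Of the Arp2/3 complex, which nucleates branched filaments, all 4 measured subunits were above the floor. Actr3, the gene of the actin-related subunit Arp3, gave 1580 on replicate 1 against 3441 on replicate 2, while its remaining probe sets gave 772 and 2182, and 460.3 and 1225. All 3 probe sets of Actr3 were thus over 2-fold higher on replicate 2, although with quantile normalization the log2 difference of the brightest was 0.50. Among genes with at least 2 probe sets above the floor, 2.52% had every one of them over 2-fold higher there, and Actr3 was the only member of this kind out of 18. Arpc2, a subunit of the core that holds the complex on the mother filament, gave 1996 and 6383, or 3.20-fold. Arpc5, a smaller subunit, gave 1153 and 1998. Arpc4, which pairs with Arpc2 in that core, went the other way, with 228 and 113, and its second probe set gave 485 and 27.8, the latter below the floor. Subunits of 1 complex thus differed between the arrays in both directions. Arpc4 was the dimmest of the 4 by the brightest probe set, and direction went with brightness among all genes, as described below.

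All 7 genes for activators of nucleation and for filament elongation were above the floor. Was, the haematopoietic activator of Arp2/3 that is mutated in Wiskott-Aldrich syndrome, gave 451 on replicate 1 and 295 on replicate 2. Wasl, its widely expressed relative N-WASP, gave 272 and 153, with a second probe set above the floor at 156 and 162. Wipf1, which encodes WIP, the partner that stabilises WASP, gave 272 and 1421, a 5.22-fold difference. Another Wipf1 probe set gave 332 and 289, so the gene's probe sets disagreed by 2.58 on the log2 scale. Hcls1, a cortactin relative of blood cells, gave 232 and 311. The formin gene Diaph1 gave 560.4 and 1209, and a second probe set with 139 and 16.3 was below both floors. Of the Ena/VASP genes, Vasp gave 515 and 351, and Evl gave 235 and 263 by its brightest probe set and 242 and 111 by the other. By the brightest probe set 2 of the 7 genes, Wipf1 and Diaph1, were over 2-fold higher on replicate 2, and for replicate 1 the count was 0. Among all genes above the floor the shares were 14.3% and 13.9%.

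All 5 measured genes of proteins that bind actin monomers passed the floor, and 4 were lower on replicate 2 (3 with median centring, where Cap1 was higher). Tmsb4x, the gene of thymosin beta-4, which sequesters monomers, gave 12523 on replicate 1 and 6887 on replicate 2. Its relative Tmsb10 gave 26060 and 12648, a 2.06-fold difference. The other Tmsb10 probe sets above the floor gave 6534 and 3804, and 841 and 202, so all 3 lay lower on replicate 2. Pfn1, the gene of profilin, which feeds monomers to growing ends, gave 257 and 129. Cap1, whose product recycles cofilin-bound monomers, gave 358 and 276. Twf2, a twinfilin gene, stood apart with 336 and 831, by a probe set of the class marked _x_at, which can cross-hybridize. The other Twf2 probe set gave 130.1 and 115, below the floor of replicate 1. The thymosin genes and Twf2 differed in opposite directions, by log2 differences of -0.86, -1.04 and 1.31.

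Capping and severing genes were above the floor in 8 of 9 measured cases, and all 8 lay within 2-fold by the brightest probe set. Of all genes above the floor 71.8% did so. Cfl1, the gene of cofilin, which severs aged filaments, gave 2502 on replicate 1 against 3740 on replicate 2 by an _x_at probe set, while its dimmer probe set gave 374 and 48.6, the latter below the floor. Wdr1, which encodes the cofilin cofactor Aip1, gave 235 and 416, and by a second probe set 235 and 233. Coro1a, the coronin of haematopoietic cells, gave 3936 and 3051, and its other probe sets gave 3942 and 2974, and 214 and 202. Coro1a was thus slightly lower on replicate 2 by each of 3 probe sets, with log2 differences between -0.41 and -0.08, though its brightest turned to 0.27 with median centring. Coro1b, a coronin of wider expression, gave 87.3 and 28.4, below the floor of each array.

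Capping genes showed how far probe sets of 1 gene can part. The heterodimeric capping protein is encoded by Capza1 and Capza2 (alpha chains) and Capzb (beta chain). Capza1 gave 558 and 765, and by its other probe set 227 and 583. Capza2 gave 398 and 745, and by its other probe set 347 and 261. Capzb gave 797 and 698 by its brightest probe set, but 714 and 166 by the next. Capg, which caps without severing, gave 384 and 248. Gsn, the gene of gelsolin, which severs and caps, had 5 probe sets above the floor, with log2 differences from -1.07 to 0.93. The brightest, an _x_at probe set, gave 283 and 540.1. The lowest difference belonged to a probe set outside that class, with 306 and 146. Without _x_at probe sets the log2 difference of Gsn thus changed sign, from 0.93 to -1.07.

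The motor of the network, nonmuscle myosin II, was above the floor for its heavy chain and its 3 measured light chain genes. Myh9, the heavy chain IIA gene, gave 1464 on replicate 1 and 4199 on replicate 2 by its brightest probe set. The other Myh9 probe sets above the floor gave 2092 and 445, and 468 and 535. No single direction can therefore be given for Myh9, whose mean log2 difference over these 3 probe sets was -0.17. Of the regulatory light chain genes, Myl12a gave 937 and 2720 by its brightest probe set and 234 and 179 by the other, and Myl12b gave 2011 and 2383. Myl6, the essential light chain gene, whose promoter holds a CArG box, gave 203 and 142 by the probe set that names it alone.

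Tropomyosins, which coil along filaments and set which proteins can bind them, held the largest differences among the members. Tpm3 gave 468 on replicate 1 and 4727 on replicate 2 by an _x_at probe set, a 10.1-fold difference. A second Tpm3 probe set above the floor gave 1084 and 1814, or 1.67-fold, so these agreed in direction and not in size. A further Tpm3 probe set, below the floor of replicate 2, went the other way with 234 and 43.3. Another, below the floor of replicate 1, was higher on replicate 2 with 7.1 and 131.6. The last, below both floors, gave 35.9 and 19. Tpm4 gave 310 and 1747 by its only probe set, a 5.64-fold difference. Tpm1, the form prominent in muscle and fibroblasts, gave 151 and 85.9, below the floor of replicate 1.

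The calponin family genes of this group did not follow the tropomyosins. Tagln2, the transgelin of haematopoietic cells, gave 447 and 222, and its other probe set gave 20.4 and 119. Cnn2, which encodes calponin 2 and whose promoter holds a CArG box, gave 960.4 and 943, the closest agreement by the brightest probe set among the 43 members above the floor.

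Among crosslinkers, Lcp1, the gene of L-plastin, which bundles filaments in leukocytes, gave 1386 on replicate 1 and 4092 on replicate 2. Its other probe set gave 516 and 569.6, a difference of 0.14 on the log2 scale against 1.56. Flna, the gene of filamin A, which joins filaments into a gel, gave 427 and 253. The alpha-actinin genes were both lower on replicate 2 (Actn4 not with median centring, at 0.04), Actn4 with 428 and 284 and Actn1 with 223 and 82.9, the latter just above the floor of 80.9. The 2 further Actn1 probe sets lay below the floor of at least 1 array.

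Genes that tie filaments to the membrane and to integrins passed the floor in 5 of 6 cases. Of the ERM proteins, which link cortical actin to surface receptors, Msn (moesin) gave 1106 on replicate 1 and 1538 on replicate 2, Ezr (ezrin) 847 and 1042, and Rdx (radixin) 238 and 175. A second probe set of Ezr gave 655 and 679, and one of Msn gave 378 and 9.8, the latter below the floor. All 3 ERM genes thus lay within 1.39-fold between the arrays by their brightest probe sets. Tln1, the gene of talin, which activates integrins, gave 348 and 199. Zyx, the gene of zyxin, found at focal adhesions, gave 413 and 158, or 2.61-fold, and its other probe set gave 14.6 and 93.3. Vcl, the gene of vinculin, whose promoter holds a CArG box, gave 138 and 140.4, above the floor of replicate 2 only.

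By the brightest probe set 23 of the 43 members were higher on replicate 2, against 49.1% of all genes above the floor. The difference exceeded 2-fold in 15 members, 10 of them higher on replicate 2 and 5 on replicate 1, while 28 lay within 2-fold. Among all 4126 genes above the floor the shares over 2-fold apart were 14.3% and 13.9%. The 10 were Actr3, Arpc2, Wipf1, Diaph1, Twf2, Myh9, Myl12a, Tpm3, Tpm4 and Lcp1, and the 5 were Arpc4, Tmsb10, Tagln2, Actn1 and Zyx. The median log2 difference of the members was 0.24 and that of all genes above the floor -0.03. In 18 members the difference was below 0.66, the pooled SD of a single log2 signal. A difference of 2 signals spreads more widely than that. The split of 10 and 5 depended on the scaling. With quantile normalization it was 5 and 4, and with median centring, which shifts replicate 2 up by 0.63 on the log2 scale, 20 and 0. Of the 43 members, 14 changed direction under at least 1 of these scalings, among them Msn, Ezr, Was, Coro1a and Cnn2, while 19 stayed higher on replicate 2 and 10 stayed lower.

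**Figure D3:**
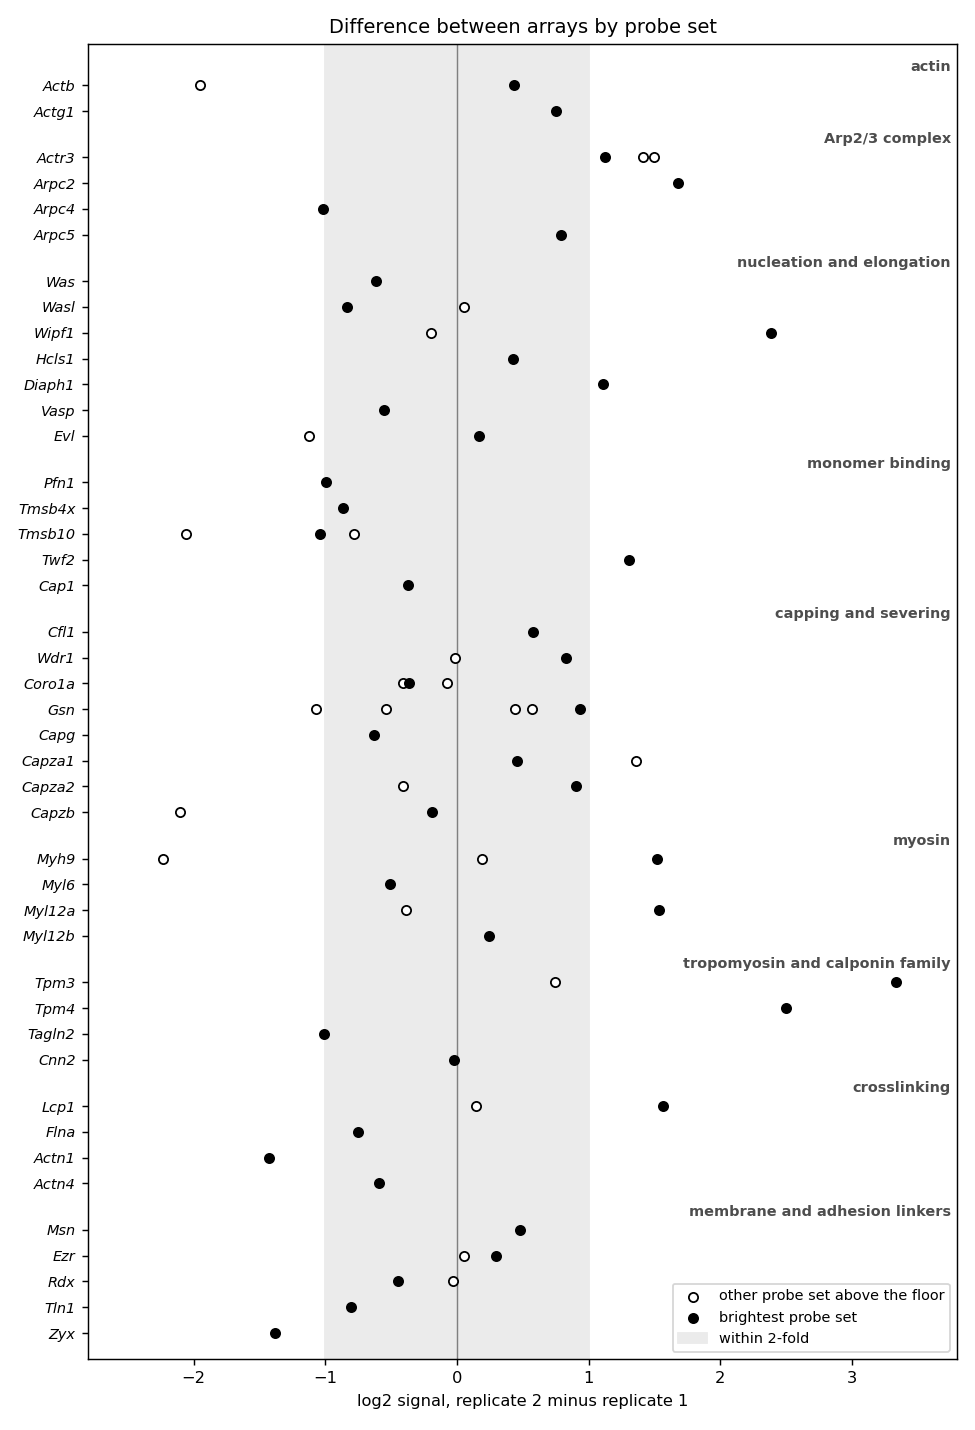
Log2 signal of replicate 2 minus replicate 1 for the 68 member probe sets that passed both floors, with the brightest of each gene filled, other probe sets open and the range within 2-fold shaded. Probe sets of Myh9, Actb, Wipf1 and Tpm3 lie far apart, while those of Actr3, Coro1a, Ezr and Rdx lie close together.

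Probe sets of the same member often disagreed. Of 18 members with at least 2 probe sets above the floor, 9 had probe sets pointing in opposite directions, or 50%, against 52% of the 993 genes of this kind. In 5 members every such probe set was higher on replicate 2 (27.1% of the 993 genes) and in 4 on replicate 1 (20.9%). Every probe set was over 2-fold higher on replicate 1 in 0 of the 18, against 2.01% of the 993. In 11 of the 18 the probe sets were over 2-fold apart in their differences, or 61.1%, against 52.4% of all such genes. Over the 68 member probe sets 13 (19.1%) were over 2-fold higher on replicate 2 and 11 (16.2%) were so on replicate 1, against shares of 13.5% and 14.6% over all 5498 probe sets. Their median log2 difference was -0.02. Without the _x_at probe sets the difference of Tpm3 was 0.74, that of Gsn was -1.07, and Twf2 and Cfl1 no longer passed the floor. The members over 2-fold higher on replicate 2 under both scalings, over the mean of their probe sets above the floor and without _x_at probe sets were 3, Arpc2, Tpm4 and Wipf1. Arpc2 and Tpm4 rest on 1 probe set each, and those of Wipf1 disagreed.

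The direction of the differences went with brightness. All genes above the floor were divided into 4 bins of equal size by their mean log2 signal, and the median difference between the arrays went from -0.73 in the dimmest bin through -0.07 and 0.21 to 0.64 in the brightest. The log2 floor of replicate 2 minus that of replicate 1 was -0.94, so a gene near both floors was lower on replicate 2 by construction. Of the 43 members 24 fell in the brightest bin, with a median difference of 0.77, and all 10 members over 2-fold higher on replicate 2 were among them. In that bin 32.2% of all genes exceeded 2-fold in favour of replicate 2, and 4.17% in favour of replicate 1. The 4 members in the dimmest bin had a median of -1.01. Within the brightest bin Tmsb10, Tmsb4x, Coro1a, Capzb and Cnn2 were the members lower on replicate 2.

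**Figure D4:**
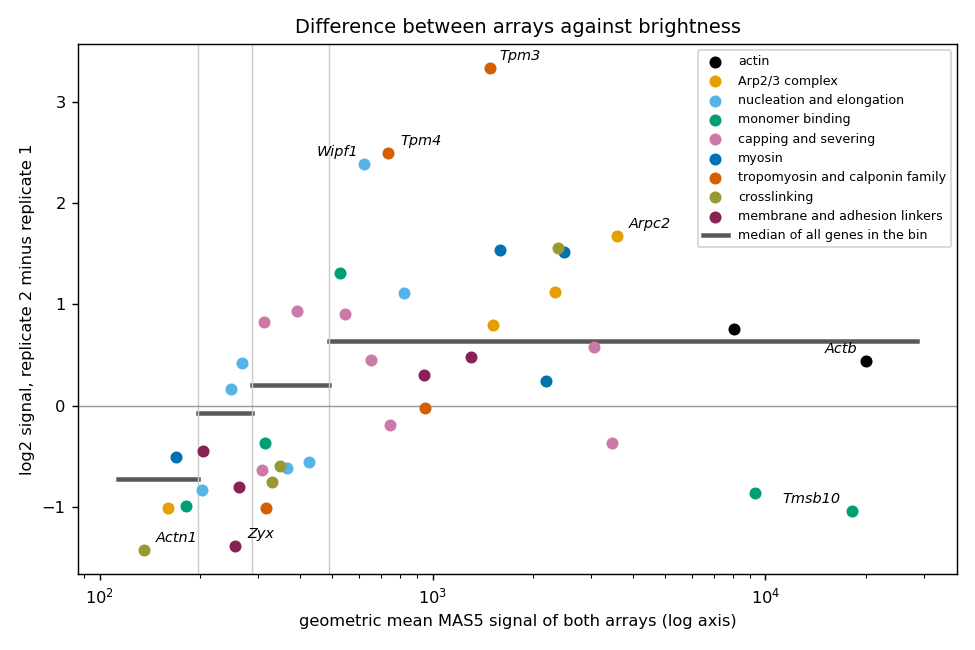
Log2 signal of replicate 2 minus replicate 1 against the geometric mean signal (log axis) for the 43 members above the floor, coloured by function, with the median of all genes above the floor in each bin of brightness as a bar. Tpm3, Tpm4 and Wipf1 lie far above the bar of their bin at 0.64, and Tmsb10 lies below it.

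Other genes of the pathway were taken from a pair of lists. Of 19 measured genes for exchange factors, kinases and other effectors that signal to actin 14 passed the floor, with 5 more than 2-fold higher on replicate 2 and 1 lower by that margin. Of 35 genes for the WAVE complex, adaptors and further binders 18 passed it, and 1 exceeded 2-fold in each direction. The shares above the floor were thus 73.7% and 51.4%, against 33.3% of all genes. Of all genes above it, 14.3% exceeded 2-fold in favour of replicate 2, and 13.9% did so in favour of replicate 1.

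The Rac activator gene Dock2, needed for lymphocyte migration, gave 211 on replicate 1 and 659 on replicate 2, whereas its relative Dock8, a Cdc42 activator, gave 342 and 123. Stk10, which encodes a kinase of ERM proteins in lymphocytes, gave 580.2 and 3223, and the adaptor gene Dbnl gave 404 and 183. With median centring the log2 differences were 2.28 for Dock2, 3.11 for Stk10, -0.84 for Dock8 and -0.51 for Dbnl. Dock8 and Dbnl thus lay within 2-fold in that setting. Each of these 4 genes had 1 probe set above the floor. In the other 4 genes over 2-fold apart a further probe set lay within 2-fold.

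Paralogues typical of muscle or other tissues were above the floor in 2 of 23 cases, or 8.7%. These were Cnn3, the third calponin gene, with 1170 and 1505, and Acta2, the smooth muscle actin gene, with 269 and 264. The 6 probe sets of Cnn3 were all above the floor, and the second of Acta2 was not, with 97.7 and 4.1. Of the others 14 were above neither floor, 3 were above that of replicate 1 only and 4 above that of replicate 2 only. Platelets and smooth muscle are rich in several members, among them Tpm1, Tpm4, Vcl and Zyx. The summed signal of 8 platelet markers was 1152 on replicate 1 and 418 on replicate 2, with Gp1bb at 264 and 86.6, Gp5 at 247 and 71.0 and Itga2b at 161 and 102. Pf4 went the other way, with 68.8 and 83.9 (Itga2b and Pf4 were named after their values were seen), and 2 of the 8 were above both floors. That of 12 markers of stroma and smooth muscle, of which Acta2 alone was above both floors, was 1185 and 568. Sums of the T cell, monocyte, neutrophil and erythroid lists, few of whose markers were above both floors, were lower on replicate 2 as well. The monocyte sums were close, at 1051 and 989. Of the 3 neutrophil markers above both floors 2 were higher on replicate 2, among them S100a8 with 164 and 450. The third, Ngp, was lower there, with 327 and 187. The floor itself was also lower on replicate 2, at 80.9 against 155 on replicate 1. The part of these cells in the differences of the members was not tested.

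SRF itself and its actin-sensing coactivator were above the floor beside these genes. Srf gave 389 on replicate 1 and 254 on replicate 2, and Mrtfa 282 and 169, so both were lower on replicate 2 by under 2-fold. With median centring their log2 differences were 0.01 and -0.11. Mrtfb, with 162 and 11.4, was below the floor of replicate 2, and Myocd, the cardiac and smooth muscle coactivator, with 80.1 and 20.2, was below both. Of the ternary complex factor genes, Elk1 gave 187 and 129.7, and Elk3, below the floor of replicate 1, gave 122 and 98.8. Elk4 gave 548 and 2355 by its brightest probe set, while the others, below the floor of replicate 1, gave 129.8 and 109.8, and 119 and 93.8. The 5 members with a CArG box in the window went in both directions, with log2 differences of -1.02 for Arpc4, -0.51 for Myl6, -0.03 for Cnn2, 0.03 for Vcl and 0.75 for Actg1. Over the 4 of them above the floor the median was -0.27, and over 36 members with a window but no box it was 0.21. Arpc4 and Myl6 lay in the dimmest bin of brightness, where the median of all genes was -0.73. Box and brightness were not separated here.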

How the data were processed

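The deposited values are linear signal intensities made by the authors with MAS5, as the submitters' processing notes state. Biotinylated cRNA was made from 6 µg of total RNA per the labels' protocols. Version, scaling target and detection calls are not given in the sources used here, and the trimmed means (2% cut at each end) were 150.03 and 150.06. No counts lie behind the signals, and 2 arrays limit the precision. Of 22690 probe sets 64 were controls. The others named 1 gene (20380), several (691) or none here (1555), per the platform annotation. The symbols of all 46 measured members matched RefSeq by Entrez identifier.

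A gene was above the floor if any of its probe sets passed it on both arrays. A difference is the log2 signal of replicate 2 minus that of replicate 1, with no pseudocount and no p-value. Members and lists were chosen with earlier results of these data known. Every member is given. Other genes are named from lists, by membership (SRF), by every probe set above the floor being over 2-fold apart (pathway), by lying above the floor (paralogues) or by signal (cell types), with exceptions marked. The calculation was tested on simulated data and run in Python 3.11.15 with numpy 2.4.6 and pandas 2.3.3. Alternatives were 3 other floors, 2 scalings, log2(signal + 32), no _x_at probe sets, 2 means over probe sets and leaving out each array. A further pathway list is not reported here.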

Additional observations from a re-analysis of the deposited data

How the results depend on the processing

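The count of members above the floor was between 41 and 45 under every alternative that gives one, and 43 to 45 on a single array. The count over 2-fold higher on replicate 2, 10 as given, was 5 with quantile normalization, 20 with median centring and 4 with the mean over all probe sets. The shares of all genes above the floor were 9.67%, 34.6% and 9.74% in these settings. The count for replicate 1, 5 as given, was 0 with median centring, 3 with log2(signal + 32) and 9 with the mean over all probe sets. For all genes the shares were 3.05%, 9.55% and 17.1%. The median difference ran from -0.28 with the mean over all probe sets to 0.88 with median centring, and its sign changed. Each move was smaller than the pooled SD of a single log2 signal, which does not measure the spread of a median. With the mean over all probe sets, which includes those below the floor, the log2 differences of 10 members changed sign. Of members over 2-fold apart these were Diaph1 (-0.99), Myh9 (-1.26), Tagln2 (0.76) and Zyx (0.65), and of those within 2-fold Actb (-0.76), Cfl1 (-1.18), Msn (-2.40), Evl (-0.48), Gsn (-0.19) and Rdx (0.26). Averaging only those above the floor, Myh9 (-0.17), Actb (-0.76) and Evl (-0.48) changed sign. Sign changed in 10 members with median centring, 4 with quantile normalization and 1, Gsn, without _x_at probe sets. Signals near the floor, as for Actn1, Arpc4 and Pfn1, limit how well a fold is known. No paired analysis was possible because there is 1 group, and leaving out an array leaves no difference to compute.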
